A study of Mus musculus with 8 samples.

Results

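A set of 10 genes of peptide signalling outside the opioid family was followed in cells sorted from the embryonic mouse amygdala: Npy, Sst, Tac1, Tac2, Cck, Nts, Cartpt, Crh, Crhbp and Vip. They were taken by name, and all 10 were rows of the deposited tables, out of 32542 named genes. All but Crhbp encode peptide precursors, and Crhbp encodes the binding protein that sequesters corticotropin-releasing hormone. RNA was sequenced from GFP-positive cells of E16.5 embryos, labelled as amygdala intercalated cells, in 4 knockout libraries (genotype Tshz1GFP/RA) and 4 control libraries (genotype Tshz1GFP/+). Both genotypes carry the GFP allele of Tshz1, which encodes a teashirt-family zinc finger transcription factor, so the controls are heterozygous and not wild type. The mice were of an outbred background, and each library came from tissue pooled over embryos of 1 genotype, so no embryo has a value of its own. The cells are defined by the sort for GFP in a dissected piece of caudal telencephalon, and the labels do not describe the RA allele further. Library titles start with NX, NY, QT or RM, each shared by 1 knockout and 1 control library, and the meaning of this prefix is not given in the sources used here. The comparison asks which transcripts differ when Tshz1 is disrupted.

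Neuropeptides are made as longer precursors, cut by proprotein convertases, trimmed and often amidated inside dense-core vesicles, and act on G protein-coupled receptors. In the forebrain Sst, Npy, Cck and Vip are classical labels of GABAergic interneuron classes, and Tac1 marks many striatal projection neurons. Intercalated cells are small clusters of GABAergic neurons around the basolateral amygdala that share a lateral ganglionic eminence origin with striatal and olfactory bulb neurons. Peptides of several of these genes, among them corticotropin-releasing hormone, neuropeptide Y and cholecystokinin, are known for roles in fear and anxiety circuits of the adult amygdala.

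Knockout libraries held 6384499 to 13295630 counts and control libraries 5785549 to 14535810. The shallow libraries were knockout RM (7447874 counts), knockout QT (6384499) and control RM (5785549). A level of 3 counts was taken as the floor of detection, which is 0.186 to 0.545 CPM (counts scaled to library size with TMM composition factors) depending on the library. This floor covers counting error only. Tshz1 averaged 79.1 ± 29.4 CPM in knockout and 381 ± 115 CPM in control libraries (SD, n = 4 each), and its genotypes did not overlap (log2 fold change -2.27, adjusted p = 0.0388, quasi-likelihood F test of edgeR, Benjamini-Hochberg over all tested genes). Leaving out 1 library at a time gave log2 fold changes from -2.55 to -2.12, with adjusted p from 0.0211 to 0.183 (edgeR), and the call held without knockout NX or without control NY and in no other case. All 10 intercalated cell markers examined, Foxp2 and Meis2 among them, were above 3 counts in every library. They summed to 1934 to 2756 CPM in knockout and 2442 to 3998 CPM in control libraries. Of the 10, 9 were fitted lower in the knockout and 1 higher (median log2 fold change -0.78), where 50.6% of all tested genes were lower. Tshz1 was 1 of 2 called lower (edgeR), against 0.0283% of all genes. At an unadjusted p under 0.05 (edgeR) 5 were lower and 1 higher, against 3.62% of all genes in either direction. Markers of interneurons and of pallial glutamatergic neurons were also counted in all libraries, with values given beside the results they touch.

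Of the 10 genes, 2 (Sst and Npy) exceeded 3 counts in all 8 libraries. Cck and Nts did so in 7 of 8, Tac1 in 6 and Tac2 in 3. Crhbp passed 3 counts in the knockout RM library only, and Cartpt, Crh and Vip passed in none. A total of 5 genes (Sst, Npy, Cck, Nts and Tac1) passed the low-count filter and entered the test across genes. The other 5 are given as counts without a test.

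Expressed per length as TPM (the deposited length-scaled abundance), Sst stood highest of the 10 in 8 of 8 libraries. It averaged 100.2 ± 99.5 TPM in knockout and 118 ± 111 TPM in control libraries (SD, n = 4 each). Its mean over all libraries, 109 TPM, lay at the 93.9th percentile of the 14157 tested genes. Npy followed with 15.3 ± 11.2 TPM in knockout and 25.6 ± 19.7 TPM in control libraries, Cck with 14.3 ± 15.6 and 14.7 ± 14.3 TPM, and Nts with 10.4 ± 3.67 and 5.53 ± 6.51 TPM. Neighbours in this order, Sst and Npy included, overlapped in their ranges over libraries within each genotype, except that Nts (6.56 TPM or more) lay above Tac1 (3.89 TPM or less) in the knockouts. The order of Npy, Cck and Nts was not larger than their spread. Tac1 averaged 2.02 ± 1.55 TPM in knockout and 5.77 ± 7.73 TPM in control libraries, and Tac2 0.788 ± 0.937 and 2.04 ± 1.76 TPM (n = 4 each); these also overlapped. Of the counts of the 10 genes together, Sst supplied 26.4% to 65.3% in knockout and 49.2% to 71.0% in control libraries.

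**Figure D1:**
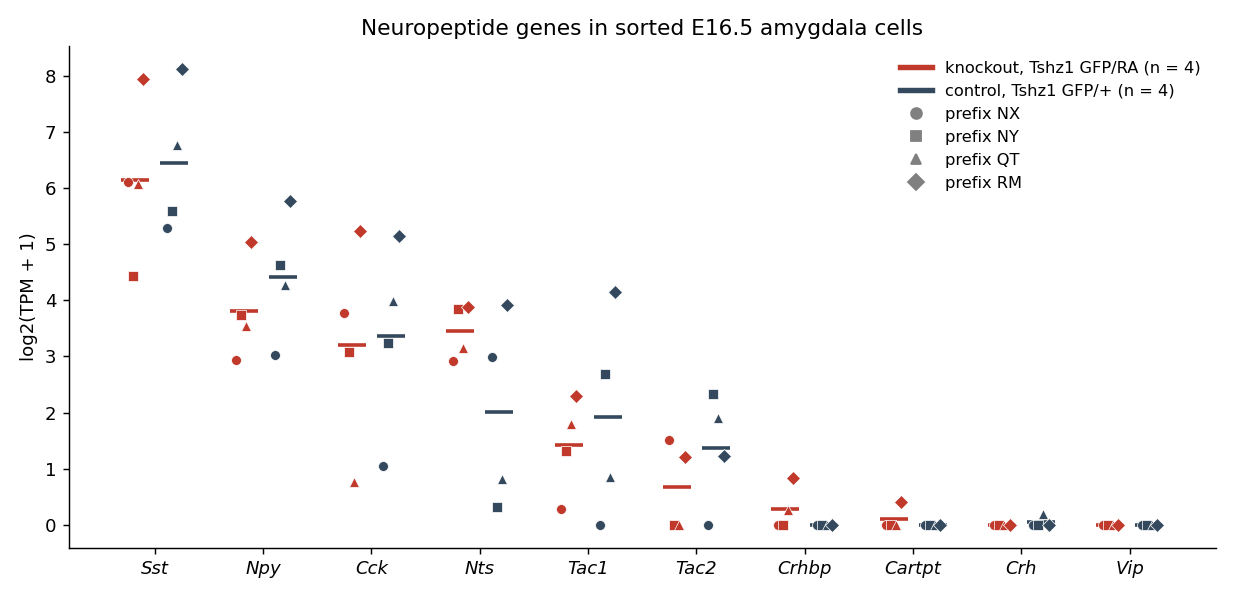
The vertical axis is log2(TPM + 1) and the horizontal axis lists the 10 genes by level; each point is a library, its shape gives the title prefix, and the bar is the mean of 4 libraries of that genotype on this scale. Sst is highest, the RM libraries (diamonds) lie at the top of Sst and Npy in both genotypes, and Crhbp, Cartpt, Crh and Vip lie at or near 0.

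Transcript length weighs on these levels because the precursors are short. The Npy model has 561 bases, and RSEM's effective length for it ran from 268 to 374 bases in knockout and from 264 to 366 bases in control libraries. Counted as CPM, which ignores length, Nts (6.59) and Cck (4.75) stood above Npy (3.31) in the knockout mean, the reverse of their order in TPM. Comparisons between genotypes below use counts of 1 gene at a time.

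All 10 genes are protein-coding, and no exon of another gene overlaps theirs in GENCODE M21 (GRCm38). Sst lies on chromosome 16 (23889573 to 23890958, minus strand), Npy on chromosome 6 (49822710 to 49829507, plus strand), Cck on chromosome 9 (121489824 to 121495694, minus strand) and Nts on chromosome 10 (102481756 to 102490486, minus strand). Tac1 lies on chromosome 6 (7554879 to 7565834, plus strand). As deposited, their expected counts were whole numbers in 8 of 8 libraries, to a tolerance of 1e-09.

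Sequence before the RefSeq start of several of these genes holds a known element, shown because genes at opposite ends of the level order share it. The cAMP response element (CRE), the site bound by CREB-family factors, was defined on the somatostatin promoter. Its full palindrome TGACGTCA was searched on both strands of the 250 bases before each RefSeq start (GRCm38.p6), and so was its core TGACG, which also lies within the palindrome. Of the 10 genes, 9 had an entry; Crh had none. The palindrome was present in Sst and in Cartpt, against 1.55% of all 32851 promoters, and the core in 7 of the 9 entries, against 17.8%. Each window below reads 5′ to 3′ along the gene with the match in capitals, where CGTCA is the core read on the other strand.
Sst: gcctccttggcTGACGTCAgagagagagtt
Cartpt: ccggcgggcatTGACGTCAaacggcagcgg
Vip: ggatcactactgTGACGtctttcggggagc
Cck: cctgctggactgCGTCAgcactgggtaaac
Nts: attagggaagatCGTCActttccatcaagg
Crhbp: gagctggaccctCGTCAttgccacgcattt
Tac1, farther match: tccctaaaattgCGTCAtttcgaacacaat
Tac1, nearer match: gctctacaggctCGTCAcgcctgagataaa

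The Sst window is chr16:23890874-23890903 on the minus strand, with the palindrome beginning 48 bases before the RefSeq start. The Cartpt window is chr13:99900777-99900806 on the minus strand, 112 bases before the start. The Vip window is chr10:5639127-5639156 and those of Tac1 are chr6:7554852-7554881 and chr6:7555006-7555035, all on the plus strand. On the minus strand lie the windows of Cck (chr9:121495724-121495753), Nts (chr10:102490567-102490596) and Crhbp (chr13:95444878-95444907). GENCODE M21 places the start of some transcripts farther out than RefSeq: the matches of Sst, Cartpt, Crhbp and the nearer one of Tac1 lie in an exon of the gene itself there. The palindrome was thus found near the RefSeq start of the most abundant of the 10 genes and of one with a total of 1 count. The Npy and Tac2 windows held neither form. A match describes letters in a window, and the data hold no measure of binding.

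Somatostatin, the product of the gene with the CRE palindrome and the highest level, inhibits hormone and transmitter release. Sst had 9.53 (NX), 4.72 (NY), 10.8 (QT) and 72.5 CPM (RM) in knockout libraries, against 6.88 (NX), 11.0 (NY), 18.4 (QT) and 57.2 CPM (RM) in control libraries. Both RM libraries were far above the other 6, and the genotypes overlapped. In CPM the knockout was higher in NX and RM and lower in NY and QT. In TPM the knockout was lower in RM too, at 245.68 against 277.85 in the control. Knockout RM had the lowest TMM factor of the 8 libraries (0.808), by which its CPM is divided. The log2 fold change was 0.07 (SE 0.81, edgeR adjusted p = 1 over all tested genes), and 2 SE on either side span -1.55 to 1.68. It was -1.46 without the knockout RM library and 0.99 without control RM, so its sign depends on single libraries; without control NX, NY or QT it was -0.24, -0.17 and -0.03.

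Neuropeptide Y, an inhibitory peptide of interneurons, gave the most even comparison. Npy had 0.817 (NX), 2.57 (NY), 1.52 (QT) and 8.32 CPM (RM) in knockout libraries, against 1.18 (NX), 5.03 (NY), 2.75 (QT) and 9.63 CPM (RM) in control libraries. The knockout was the lower one in 4 of 4 prefixes, as it was for 8.49% of all tested genes, but the genotypes overlapped widely. Npy did not pass (log2 fold change -0.49, SE 0.79, edgeR adjusted p = 1), with 2 SE on either side spanning -2.08 to 1.09. The fold change was 0.12 without control RM, -1.47 without knockout RM and -0.86 without both.

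Cholecystokinin marks another interneuron class and is also made by pyramidal cells. Cck had 35, 26, 1 and 86 counts in the knockout NX, NY, QT and RM libraries, against 4, 34, 44 and 53 in the control ones. In CPM these were 2.38, 2.15, 0.152 and 14.3 in the knockout and 0.248, 2.52, 3.37 and 9.63 in the control. The low libraries were thus knockout QT in one genotype and control NX in the other. The same control NX library had the lowest summed level of 14 pallial glutamatergic markers, 53.4 CPM, where the other controls had 301 to 472 CPM and the knockouts 231 to 583 CPM; knockout QT had the highest. Control NX was not low in that list alone. It was also the lowest of the 8 libraries in summed markers of astrocytes and radial glia (26.2 CPM, against 109 to 776 CPM in knockouts), oligodendrocyte lineage (19.9 CPM, against 44.4 to 71.7 CPM), microglia (4.71 CPM, against 9.06 to 54.7 CPM), vessels and meninges (1.36 CPM, against 2.996 to 12.98 CPM) and ganglionic eminence interneurons (482 CPM, against 550 to 771 CPM). In summed intercalated cell markers control NX was instead the highest of the 8 libraries, at 3998 CPM. The other controls had 2442 to 3152 CPM there and the knockouts 1934 to 2756 CPM. Among the knockouts, NX was likewise the lowest in the pallial, astrocyte, oligodendrocyte, microglia, vascular and interneuron sums. The part of these cell types in the Cck values was not tested. The log2 fold change of Cck was 0.29 (SE 1.06, edgeR adjusted p = 1), with 2 SE on either side spanning -1.84 to 2.41. It was -1.25 without the knockout RM library, 1.19 without control RM and -0.12 without control NX.

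Neurotensin modulates dopamine signalling and is made in parts of the central and extended amygdala. Nts had 41, 94, 26 and 71 counts in the knockout NX, NY, QT and RM libraries, against 54, 2, 5 and 50 in the control ones. In CPM these were 2.79, 7.78, 3.96 and 11.8 in the knockout, against 3.35, 0.148, 0.383 and 9.09 in the control. In CPM the knockout was higher in 3 of 4 prefixes, with control NY and control QT near the floor and NX almost level. In TPM the RM libraries were almost level too, with 13.7 in the knockout and 14.17 in the control, so that direction depends on the scaling. Nts did not pass (log2 fold change 1.07, SE 0.95, edgeR adjusted p = 1), and 2 SE on either side span -0.84 to 2.98. Leaving out 1 library gave values from 0.64 to 2.31, the lowest without knockout RM and the highest without control RM; it was 0.66 without control NY and 0.68 without control QT. Other methods gave larger values for Nts: 2.39 with limma-voom, 1.43 on log2(TPM + 1) and 2.08 on log2(TPM + 0.1), with unadjusted p of 0.0293, 0.0262 and 0.0264 and limma adjusted p of 1 in each.

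The tachykinin precursors were scarce. Tac1, which encodes substance P and neurokinin A, had 1, 8, 6 and 15 counts in the knockout NX, NY, QT and RM libraries, against 0, 34, 4 and 44 in the control ones. Its high libraries were control NY and control RM, at 2.52 and 8.0 CPM, while knockout libraries ran from 0.0681 to 2.50 CPM. Tac1 did not pass (log2 fold change -1.39, SE 1.31, edgeR adjusted p = 1), with 2 SE on either side spanning -4.02 to 1.23, and it was 0.08 without control RM and -2.28 without knockout RM. Of 14 striatal projection neuron markers, 12 were above 3 counts in every library. They summed to 815 to 1580 CPM in knockout and 765 to 1106 CPM in control libraries, higher in the knockout of each prefix. Of the 13 tested, 9 were fitted higher and 4 lower (median log2 fold change 0.46), against 49.4% and 50.6% of all genes. At an unadjusted p under 0.05 (edgeR) 2 were higher and 0 lower, against 3.62% of all genes in either direction. Their part in the Tac1 values was not tested. Tac2, which encodes neurokinin B, had 5, 0, 0 and 3 counts in knockout and 0, 16, 8 and 2 in control libraries. Only knockout NX, control NY and control QT were above the floor, which gives no basis for a comparison.

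The remaining 4 genes were at or near 0. Of 10 markers of hypothalamic and medial amygdala neurons, 0 passed 3 counts in every library, and they summed to 2.13 to 8.98 CPM in knockouts and 0.372 to 8.95 CPM in controls. The most abundant of them, the transcription factor gene Lhx9, passed 3 counts in 6 libraries. Vip, the precursor of vasoactive intestinal peptide, had 0 counts in all 8 libraries, which allows up to 0.204 to 0.499 CPM in a knockout and 0.186 to 0.545 CPM in a control library. Crh, the corticotropin-releasing hormone precursor, had 1 count in control QT and 0 elsewhere. Cartpt, which encodes the cocaine- and amphetamine-regulated transcript peptide, had 1 count in knockout RM and 0 elsewhere. Crhbp had 6 counts in knockout RM, 1 in knockout QT and 0 in the other 6 libraries, so its knockout signal rests on 1 library. At this depth no difference between genotypes was detectable for any of these 4.

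None of the 5 tested neuropeptide genes was called in the knockout at an adjusted p under 0.05 (edgeR), where 0.0353% of all tested genes were (5 of 14157), 0.00706% higher and 0.0283% lower. None had an unadjusted p under 0.05 in that test either, against 3.62% of all genes, and DESeq2 called none, against 0.275% of all genes. Fitted values were higher for Sst, Cck and Nts and lower for Npy and Tac1, where 49.4% of all genes were fitted higher and 50.6% lower. CPM ranges of the genotypes overlapped for all 5, while they did not for 2.59% of tested genes. The missing calls do not show that these genes were unchanged. The intervals above, from the fit without the title prefix, allow changes of more than 2-fold in at least 1 direction for each. With the prefix as a replicate block SE was smaller, at 0.315 for Sst and 0.493 for Npy. In bulk libraries such as these, fewer cells with a transcript and less transcript per cell cannot be told apart.

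**Figure D2:**
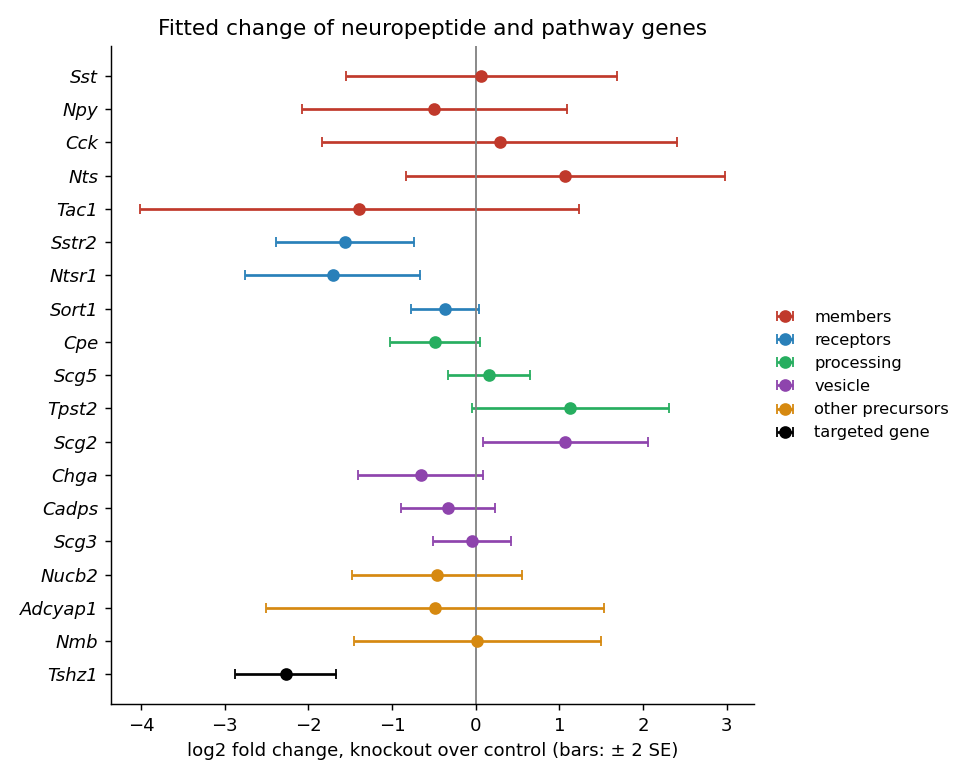
The horizontal axis is the fitted log2 fold change of knockout over control with bars of 2 SE on either side, and the rows are the 5 tested neuropeptide genes, genes of their receptors, processing and vesicles, other precursors, and Tshz1 as the targeted gene (4 libraries per genotype). The bars of all 5 neuropeptide genes cross 0, while those of Tshz1, Sstr2, Ntsr1 and Scg2 do not. Of these 4, only Tshz1 passed the adjustment over all genes, and Scg2 was above 0.05 before it (unadjusted p = 0.0505, edgeR).

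Npy, Sst, Tac1 and Cck varied with the title prefix more than the median gene did, and Nts varied with it less. Of the sum of squares of log2 CPM (prior count 2) over the 8 libraries, 91.7% lay between prefixes for Npy, 91.4% for Sst, 85.7% for Tac1, 63.5% for Cck and 40.5% for Nts. The median over all tested genes was 56.0%, and 4 prefixes take a larger share than 2 genotypes by their number alone. The genotype took 6.76% for Npy, 1.21% for Sst, 1.42% for Tac1, 0.112% for Cck and 29.0% for Nts, with a median of 7.85% over all genes. These shares are descriptions, chosen after the values were seen. Without both RM libraries the share between prefixes was 77.7% for Npy, 48.2% for Sst, 78.8% for Tac1, 18.1% for Cck and 8.98% for Nts, with a median of 47.0% over all genes.

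**Figure D3:**
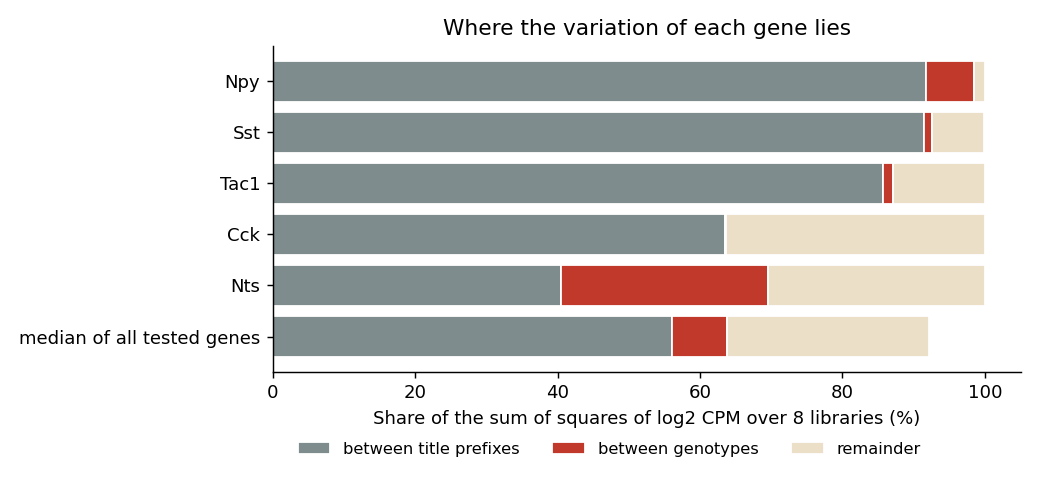
Bars split the sum of squares of log2 CPM over 8 libraries, in percent, into parts between title prefixes, between genotypes and a remainder; the lowest bar shows the medians of the 3 parts over all tested genes, which need not add up to 100. The part between prefixes is larger than that median for Npy, Sst, Tac1 and Cck, and smaller for Nts.

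The RM libraries were the 2 highest of the 8 for Sst, Npy, Cck and Nts, as they were for 8.72% of tested genes. The mean CPM of the RM libraries was 4.45-fold that of the next prefix for Sst, 5.13-fold for Cck, 2.63-fold for Nts, 3.30-fold for Tac1 and 2.36-fold for Npy. Their 100 most abundant genes held 53.9% (knockout) and 45.6% (control) of the counts, above the other libraries, with 32.2% to 41.9% in knockouts and 33.1% to 43.1% in controls. Lhx6, a transcription factor of interneurons from the medial ganglionic eminence, named here outside the rule for genes, had 42.1 CPM in knockout RM and 43.6 CPM in control RM. It had 20.6 to 46.8 CPM in the other knockout and 6.70 to 41.2 CPM in the other control libraries, so control RM was the highest control and knockout RM lay within the range of the knockouts. Sox6 and Satb1, also interneuron markers, were not highest in RM in either genotype. Sox6 had 129.6 CPM in knockout RM and 74.7 CPM in control RM, against 170.5 and 143.5 CPM in the QT libraries. Satb1 had 81.2 CPM in knockout RM and 90.0 CPM in control RM, against 88.6 and 108.9 CPM in the NY libraries. The 20 interneuron markers of the medial and caudal ganglionic eminences summed to 550 to 771 CPM in knockout and 482 to 935 CPM in control libraries. Knockout RM was the highest knockout (771 CPM), and control RM (815 CPM) was below control QT (935 CPM) and above the other controls. Of these 20, 14 were above 3 counts in every library and Pvalb was at 0 in all. Other cell type sums also had RM at an extreme. Striatal projection neuron markers were lowest in RM within each genotype (815 CPM in knockout and 765 CPM in control). Astrocyte and radial glia markers were highest in knockout RM (776 CPM), but control RM (542 CPM) was below control NY (615 CPM). Microglia markers were highest in control RM (129 CPM), but knockout RM (51.6 CPM) was below knockout NY (54.7 CPM). What sets the RM libraries apart was not tested.

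**Figure D4:**
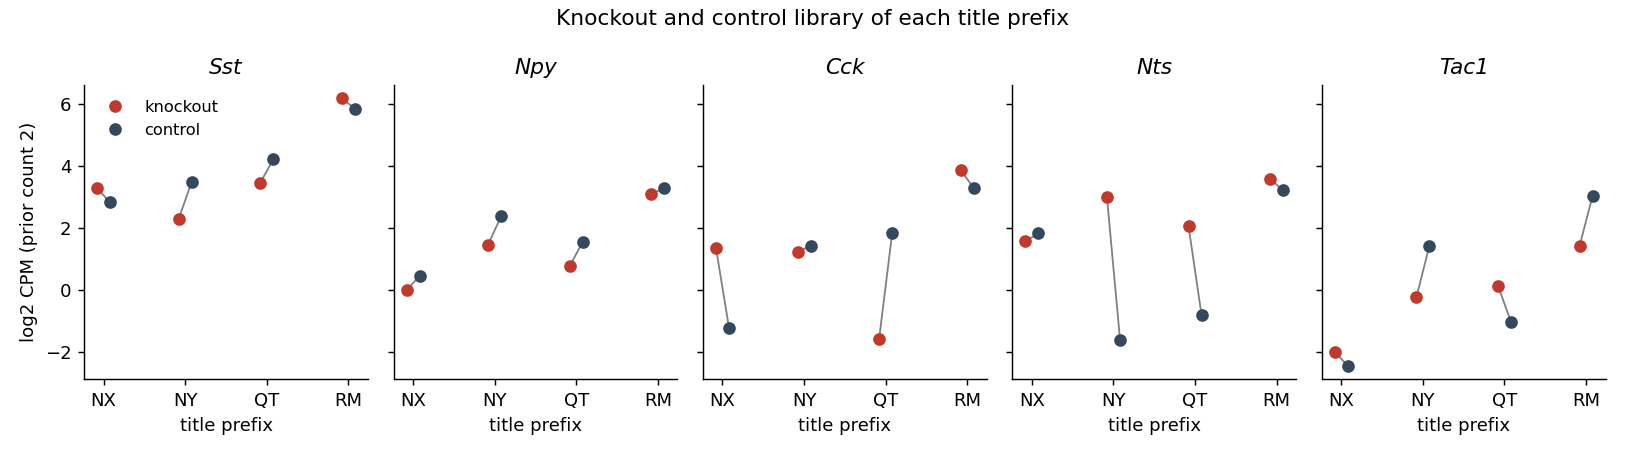
The vertical axis is log2 CPM (prior count 2) and the horizontal axis gives the title prefix; each panel is a gene, and a line joins the knockout and the control library of 1 prefix. Npy is lower in the knockout in 4 of 4 prefixes by 0.21 to 0.92, while Sst, Cck, Nts and Tac1 differ in sign between prefixes.

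Among all pairs of the 5 tested genes, the Pearson correlation of log2 CPM over the 8 libraries was largest for Npy and Tac1 (r = 0.906) and 0.776 for Npy and Sst. Nts stood apart, with r from 0.157 to 0.304 against the other 4. These values describe 8 libraries that share prefixes and the RM extreme. The genes with the most similar pattern to Sst were Synm, an intermediate filament gene (r = 0.969, Spearman's rho = 0.952), and Fmn2, a formin that nucleates actin (0.963 and 0.929), over 8 libraries. For Cck the nearest was Pkd1, the polycystin-1 gene (r = 0.976, rho = 0.952), and for Nts A830011K09Rik (0.942 and 0.905). They were the highest of 14157 genes, a choice that by itself gives large values.

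The receptors of these peptides were partly expressed in the same libraries. Of 22 receptor genes, 8 were tested, 6 were above 3 counts in every library and 4 had no count in any (Npy4r, Npy6r, Sstr5 and Tacr2). None was called in either direction (edgeR), where 0.0353% of all tested genes were. At an unadjusted p under 0.05 (edgeR) 2 of the 8 were lower, where 3.62% of all tested genes passed in either direction. Of the 8, 6 were fitted lower, against 50.6% of all genes. The median log2 fold change was -0.20 against -0.01 over all tested genes.

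Sstr2, a G protein-coupled somatostatin receptor, had 8.51 (NX), 17.5 (NY), 15.98 (QT) and 3.99 CPM (RM) in knockout libraries, against 35.2 (NX), 27.6 (NY), 47.7 (QT) and 25.6 CPM (RM) in control libraries. The highest knockout library was below the lowest control library, and the CPM ranges of the genotypes did not overlap for 2.59% of tested genes. Sstr2 was named for the smallest p of the receptor list, a choice that favours such a gap. The log2 fold change was -1.56 (SE 0.41; unadjusted p = 0.00239, edgeR adjusted p = 0.690), so it did not pass over all genes. Over 23 alternative settings it ran from -1.93 to -1.28, and its smallest adjusted p was 0.067 (DESeq2).

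Ntsr1, a neurotensin receptor, had 8.51 (NX), 5.55 (NY), 3.65 (QT) and 5.82 CPM (RM) in knockout libraries, against 43.5 (NX), 7.03 (NY), 12.8 (QT) and 14.2 CPM (RM) in control libraries. The knockout was lower in 4 of 4 prefixes, as it was for 8.49% of tested genes, and the genotypes overlapped through the knockout NX and control NY libraries. The log2 fold change was -1.71 (SE 0.52; unadjusted p = 0.00645, edgeR adjusted p = 1), and it was -0.93 without the control NX library. Sort1, the sorting receptor sortilin that also binds neurotensin, averaged 135 ± 21.4 CPM in knockout and 173 ± 33.5 CPM in control libraries (SD, n = 4 each) and did not pass; counts of Gm12523 on its other strand cannot be separated from it.

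The machinery that makes and packs peptides was well expressed. Of 14 processing genes, 12 were tested and 11 were above 3 counts in every library. None was called (edgeR), where 0.0353% of all tested genes were. Of the 12, 7 were fitted higher and 5 lower, against 49.4% and 50.6% of all genes. The median log2 fold change was 0.17 against -0.01 over all tested genes. Cpe, the carboxypeptidase that trims precursors, averaged 118 ± 13.5 CPM in knockout and 165 ± 65.3 CPM in control libraries (SD, n = 4 each). Scg5, a chaperone of prohormone convertase 2, averaged 50.8 ± 9.16 and 45.3 ± 12.6 CPM. Tpst2, a tyrosine sulfotransferase, averaged 4.81 ± 1.83 CPM in knockout and 2.19 ± 1.33 CPM in control libraries and was higher in 4 of 4 prefixes, as 8.32% of tested genes were. It did not pass (log2 fold change 1.13, SE 0.59, edgeR adjusted p = 1).

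Of 15 dense-core vesicle genes, 13 were tested and 12 were above 3 counts in every library. None was called (edgeR), where 0.0353% of all tested genes were. Of the 13, 9 were fitted lower and 4 higher, against 50.6% and 49.4% of all genes. The median log2 fold change was -0.19, against -0.01 over all tested genes. Cadps, which primes dense-core vesicles for release, averaged 143 ± 56.9 CPM in knockout and 180.3 ± 41.0 CPM in control libraries, and Scg3, a granin-binding protein, 109 ± 34.8 and 112 ± 8.22 CPM (SD, n = 4 each). Chga, which encodes chromogranin A, averaged 8.10 ± 2.69 CPM in knockout and 12.9 ± 4.16 CPM in control libraries. Scg2, which encodes secretogranin II, had 77.9 CPM in knockout NX and 13.6 to 23.3 CPM in the other knockouts, against 12.4 to 23.4 CPM in controls. Its log2 fold change was 1.07 (SE 0.49, edgeR unadjusted p = 0.0505, adjusted p = 1) and 0.20 without knockout NX, so that library holds most of the difference.

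Other non-opioid precursors were sparse. Of 40 listed, 3 were tested, 17 had no count in any library and 22, those 17 included, never exceeded 3 counts. None was called (edgeR), where 0.0353% of all tested genes were. Of the 3, 2 were fitted lower and 1 higher, against 50.6% and 49.4% of all genes, with a median log2 fold change of -0.46. Nucb2, the nesfatin precursor, averaged 9.54 ± 8.23 CPM in knockout and 13.3 ± 3.68 CPM in control libraries (SD, n = 4 each). Adcyap1, which encodes PACAP, had 2.86, 0.331, 0 and 0.166 CPM in the knockout NX, NY, QT and RM libraries, against 0.682, 1.55, 1.22 and 1.64 CPM in the control ones, so 3 knockout libraries lay below every control and knockout NX above. Nmb, which encodes neuromedin B, averaged 1.21 ± 0.678 CPM in knockout and 1.19 ± 0.452 CPM in control libraries, which includes any reads of Sec11a over shared exons.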

How the data were processed

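RNA from FACS-sorted GFP-positive cells was amplified with NuGEN Ovation RNA-Seq System v2 and made into Nextera XT libraries, per the labels' protocols. Per the submitters' processing notes, the tools named are RSEM 1.2.22, Trimmomatic 0.33 and Bowtie2, with the mm10 build; the annotation release is not given in the sources used here. The deposited expected counts are unnormalized RSEM estimates per gene, and the deposited TPM values are scaled by length and library; TPM carries no depth. The deposited matrices and the sample files held equal values in all 16 columns of counts and TPM; lengths come from the deposited sample files. A row named unknown (at most 1.78e-05% of counts) was left out.

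Expected counts were rounded and tested with edgeR 4.0.16 (R 4.3.3): filterByExpr, TMM, glmQLFit and glmQLFTest with genotype as the single term, Benjamini-Hochberg over 14157 genes, called at adjusted p under 0.05. SE is the fold change over the root of F. Amplified reads carry no molecular identifiers, and the kit as labelled does not mark strand. P-values measure the spread between pools, which may share litters. The members and gene lists were chosen with earlier results of these data known. Besides Tshz1 and the 10 members, genes were named by a rule. Each list gave those called or the 2 with the smallest p, and the 2 with the highest mean CPM. The genes nearest by correlation to the 3 members highest in CPM were added. Most of those from cell type lists, and some nearest genes without a gene symbol, are not printed. Lhx6 and Satb1 were named outside this rule. A test on simulated data of the knockout against control design, over 13821 genes, called 12% of genes changed 2-fold, 68% at 4-fold, 80.0% at 8-fold and 86% at 16-fold. It changed 50 genes at each fold, drawn above a minimum average level, and held no prefix effect. The shares therefore describe that setting and not the 5 tested neuropeptide genes. Alternatives used DESeq2 1.42.0, limma 3.58.1 (voom, and trend on log2 TPM), other factors, filters, libraries and the prefix as a block. Promoter windows are from RefSeq (GRCm38.p6) and positions from GENCODE M21.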

Additional observations from a re-analysis of the deposited data

Results flagged for a closer look

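Of 41 groups of 4 libraries, 5 (12.2%) held a library whose gap to the nearest other, relative to the group's range in CPM, passed Dixon's critical value. That value marks about 1 group in 20 among independent groups of normally distributed values. Raw CPM need not be so distributed, and the groups share libraries, so the flagged share cannot be set against that rate. All 5 were knockout groups. Knockout RM stood out in Sst, at 72.5 CPM with the other knockouts at 4.72 to 10.8 CPM, and in Cck, at 14.3 CPM with the others at 0.152 to 2.38 CPM. It also stood out in Crhbp, at 0.998 CPM with the others at 0 to 0.152 CPM. Knockout NX stood out in Scg2, at 77.9 CPM with the others at 13.6 to 23.3 CPM, and in Adcyap1, at 2.86 CPM with the others at 0 to 0.331 CPM. For Sst and Cck the control RM library was also the highest of its genotype, at 57.2 and 9.63 CPM. The causes were not tested.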

How the results depend on the processing

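No neuropeptide gene was called under any alternative run, including DESeq2. The count of all genes called was less firm: 5 in the edgeR quasi-likelihood test, 9 with no composition factors, 19 with no low-count filter, 39 with DESeq2, 2 with limma-voom, 2 with robust estimation and 10 with limma on log2(TPM + 1). It ran from 0 to 5 when 1 library was left out, was 3 without both NX libraries and 0 without both NY, both QT or both RM libraries, and 0 without control NX and knockout QT together. Same-prefix libraries deviated together at r = 0.385 (NX), 0.303 (NY), 0.066 (QT) and 0.45 (RM). Knockouts NX, NY and RM correlated best with the control of their own prefix, and knockout QT with control RM (0.072). The meaning of the prefix is not given, so it was an alternative and not part of the main fit. With the prefix as replicate block, 28 genes were called and none of the neuropeptide genes. The log2 fold change was then -0.272 for Sst (SE 0.315, against 0.808 without the block) and -0.634 for Npy (SE 0.493, against 0.792). The number of neuropeptide genes detected in every library was 2 above 3 counts and 1 above 10 counts.

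Several fold changes turned sign. The log2 fold change of Sst (0.07) was -0.11 with no composition factors, -0.29 with limma-voom, -0.30 on log2(TPM + 1), -0.31 on log2(TPM + 0.1), -0.27 with the replicate block, -0.53 without both RM libraries, -0.0011 without control NX and knockout QT, and -1.46 to 0.99 when 1 library was left out (-0.24 without control NX, -0.17 without control NY, -0.030 without control QT). Cck (0.29) was -0.15 on log2(TPM + 1), -0.22 on log2(TPM + 0.1), -0.34 without both RM libraries and -1.25 to 1.19 when 1 library was left out (-0.12 without control NX). Tac1 (-1.39) was 0.15 with limma-voom, -0.62 with the replicate block and -2.28 to 0.085 when 1 library was left out, and Npy (-0.49) -1.47 to 0.12. Nts (1.07) was above 0 in all alternatives run, from 0.56 without both NY libraries to 2.39 with limma-voom, and was 1.85 with the replicate block. Nmb (0.02) was -0.045 with no composition factors, -0.30 with limma-voom, -0.14 on log2(TPM + 1), -0.21 on log2(TPM + 0.1), -0.14 with the replicate block, -0.29 without both NY libraries, -0.37 without control NX and knockout QT, and -0.22 to 0.37 when 1 library was left out (-0.18 without control NX, -0.036 without control NY, -0.17 without knockout QT). Scg3 (-0.04) was 0.075 without both QT libraries, 0.10 without both RM libraries and -0.25 to 0.12 when 1 library was left out (0.0082 without control QT, 0.026 without knockout QT). Nucb2 (-0.46) was 0.037 without control NX and knockout QT. Tshz1 missed the threshold in 11 settings, with adjusted p up to 0.618 (edgeR without both QT libraries). The causes were not tested.

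Tac2, Crhbp, Cartpt, Crh and Vip lie at or near the floor of 3 counts in most libraries. Whether more depth would detect them was not tested. Without the filter Crhbp gave an unadjusted p of 0.0354 and, with edgeR, an adjusted p of 0.912, resting on 6 counts of knockout RM.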
